A study of Mus musculus with 12 samples.

Results

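Brown adipocytes at day 8 of differentiation were compared with white adipocytes at day 10, gene by gene, on 6 of the 12 expression arrays of a study of mouse fat cell lines. The 6 arrays were taken by their labels alone, 3 for each kind of adipocyte, and all 13745 genes tested on them are described. The brown adipocytes came from a brown preadipocyte line, labelled only by its type, grown in DMEM with fetal bovine serum and held at confluence for 2 days. They were induced for 3 days with IBMX (0.5 mM), dexamethasone (1 µM), indomethacin (125 µM), insulin (20 nM) and T3, a thyroid hormone (1 nM), and then kept in the same insulin and T3 until harvest at day 8. The white adipocytes came from 3T3-L1, an established line of white-type mouse preadipocytes grown in DMEM with fetal calf serum and also held at confluence for 2 days. Their mix, also given for 3 days, held the same IBMX and dexamethasone with insulin at 1 µg/mL and neither indomethacin nor T3. They then received insulin for 2 more days, and stood in plain growth medium until harvest at day 10. The other 6 arrays held the brown and white preadipocytes at day 0. The line, both media and the day of harvest all differed between the groups at once, and their parts in any difference below cannot be told apart. Each kind of adipocyte was 1 line, and the labels do not say whether the 3 arrays of a group came from separate cultures, so p-values measure the spread between these arrays, which may be technical.

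White adipocytes store triglyceride in a single large droplet and release fatty acids and hormones such as leptin, adiponectin and resistin. Brown adipocytes hold many small droplets and many mitochondria, and burn fatty acids to make heat through UCP1, a protein of the inner mitochondrial membrane that lets protons flow back without making ATP. Both kinds depend on the transcription factors PPARG and C/EBP alpha. Brown cells also use PRDM16, EBF2 and the coactivator PGC-1 alpha, encoded by Ppargc1a.

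Array signals are in arbitrary units. Differences are log2(signal + 16) of brown adipocytes minus white adipocytes, so a positive value means a higher signal in brown adipocytes and each unit is a factor of 2. A gene was called when its p-value in the limma fit, adjusted by the Benjamini-Hochberg method over all genes tested, was under 0.05. Across all probe sets, Pearson's r of log2 signal was 0.980 to 0.981 within brown adipocytes, 0.978 to 0.979 within white adipocytes and 0.921 to 0.924 between them. The ratio of 3′ to 5′ probe sets for Actb, a sign of RNA integrity, was 2.39 to 2.48 on brown adipocyte arrays and 2.08 to 2.35 on white adipocyte arrays. Its exact two-sided permutation p was 0.1, the smallest that 3 arrays against 3 allow. The same ratio for Gapdh was 0.799 to 0.835 on brown and 0.820 to 0.833 on white adipocyte arrays. For Pcx it was 6.23 to 7.67 on brown and 5.80 to 9.46 on white adipocyte arrays. Both overlapped between the groups, with the lower mean in brown adipocytes. The part of these ratios in the differences was not tested. In bulk RNA, fewer cells of a type and less RNA per cell cannot be told apart.

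The general adipocyte markers had high signals in both cultures. Of 9, 1 was called higher in brown adipocytes (the lipase gene Pnpla2, 0.56), 5 were higher in white adipocytes and 3 were not called. Those higher in white adipocytes were Cidec (−2.60), Plin4 (−1.88) and G0s2 (−0.82) of the lipid droplet, the fatty acid transporter gene Cd36 (−0.45) and Lipe (−0.38), which encodes hormone-sensitive lipase. The call of Cd36 was lost without any 1 of the 6 arrays, and its difference was −0.31 and not called with arrays scaled to the hybridization control probe sets, −0.28 and not called after quantile normalization. Its 2 other probe sets gave −0.31 and 0.67, so its direction depends on the probe set. With the mean of its probe sets the difference was −0.03 and not called (adjusted p = 0.872). The call of Lipe was lost with arrays scaled to those controls (adjusted p = 0.13). Fabp4, a fatty acid carrier of the adipocyte cytosol, had signals of 41239, 39523 and 38848 in brown adipocytes, against 46516, 43519.6 and 39941 in white adipocytes, and these arrays overlapped between the groups. Adipoq, which encodes adiponectin, had 26904, 26089 and 26002 in brown adipocytes, against 34156, 32939.9 and 29256 in white adipocytes. Its brown adipocyte arrays lay below its white adipocyte arrays, but the difference of −0.28 did not pass the test (adjusted p = 0.318), although a fit of only the 6 adipocyte arrays called it (adjusted p = 0.0249). Pparg, the master regulator of fat cell formation, had 9043, 9252 and 8699.7 in brown adipocytes, against 8757, 8773 and 8147 in white adipocytes and did not pass either (log2 difference 0.072, adjusted p = 0.366). It was called higher in brown adipocytes after quantile normalization (0.24, adjusted p = 0.00678) and with arrays scaled to the hybridization controls (0.21, adjusted p = 0.0358). Of 12 brown adipocyte markers, 9 were called higher in brown adipocytes, 2 were not called and 1, Lhx8, was too dim to test. Of 6 white adipocyte markers, 3 were higher in brown adipocytes (Lep, Hoxc8 and Hoxc9), 2 were higher in white adipocytes (Retn and Nnmt) and Tcf21 was not called. The brown fat markers that were called followed the brown label, while white fat markers split between the groups. Over all genes tested, 59.5% were called in one direction or the other, which is the background for each count of members below.

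**Figure D1:**
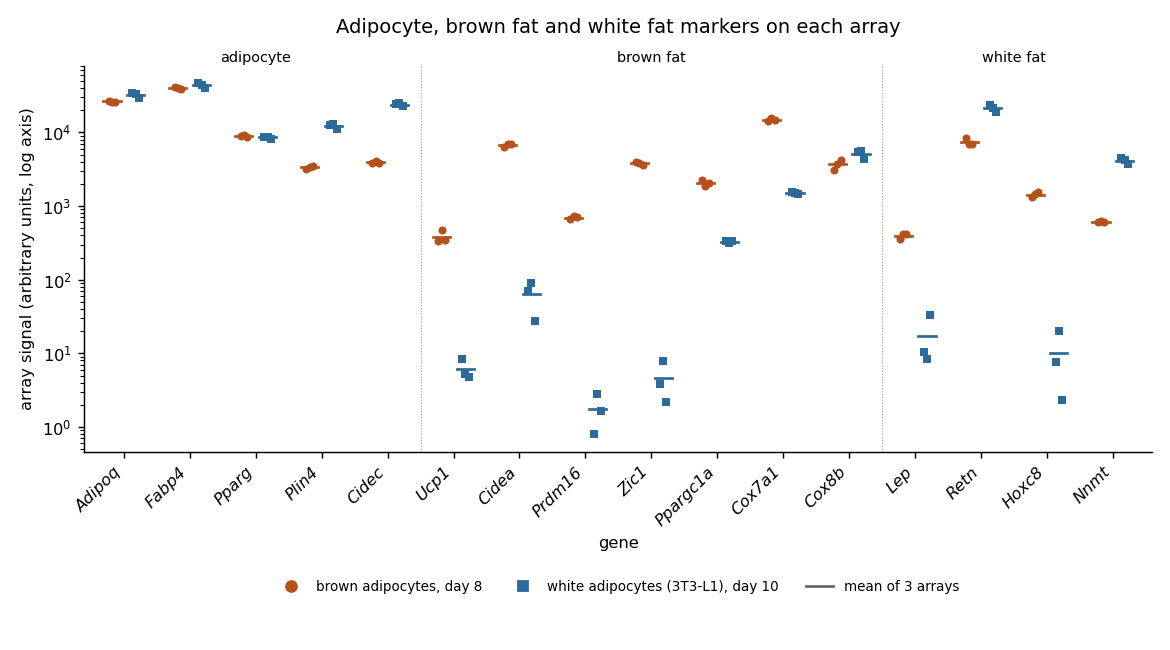
Signals of 16 marker genes on each array, on a log axis, with brown adipocytes (circles) left of white adipocytes (squares) and a bar at the mean of 3 arrays. Ucp1, Cidea, Prdm16, Zic1, Lep and Hoxc8 have the widest gaps, all with brown adipocytes above, while Fabp4 and Pparg lie close together.

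Of 13745 genes tested, 4124 (30.0%) were called higher in brown adipocytes and 4051 (29.5%) higher in white adipocytes. Counting only differences of at least 2-fold, 1625 (11.8%) were higher in brown and 1530 (11.1%) higher in white adipocytes. For 65.5% of genes the 3 arrays of one group lay wholly above the 3 of the other. The median difference over all genes was 0.0006 on the log2 scale. A further 4448 named genes were too dim to test. Each gene is given by its brightest probe set, and with the mean of its probe sets in place of it, the differences of 47 of the 222 called genes named here moved by over 1.5 times, most of them towards 0. With less specific probe sets left out, 13 moved that far, and the calls of Atpif1, Plagl1, Pnpla2 and Vldlr were lost.

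The largest difference towards brown adipocytes was that of Rbp4, the carrier of retinol in blood, with signals of 20648, 21461 and 20246 in brown adipocytes, against 50.6, 69.2 and 29.9 in white adipocytes. Mme, a membrane peptidase also called neprilysin, followed with 5606, 5988 and 5701 in brown adipocytes, against 11.1, 14.8 and 11.9 in white adipocytes. Zic1, a transcription factor known as a mark of brown fat depots, had 3984, 3784 and 3600.4 in brown adipocytes, against 3.78, 7.89 and 2.18 in white adipocytes. All 3 were dimmer than the 40th percentile of all probe sets (35.3 to 41.2 on the 6 arrays) on at least 1 white adipocyte array, and the size of such differences depends on the pseudocount. For Zic1 it was 7.54, against 9.53 with a pseudocount of 1 and 5.81 with one of 64. Efemp1, a fibulin of the extracellular matrix, differed by 7.32 and Acvr1c, the receptor ALK7 found on fat cells, by 7.15. Cdkn1c, an imprinted inhibitor of cyclin-dependent kinases, differed by 7.02, and Mycn, a proliferation-related transcription factor, by 6.77. Other Mycn probe sets were above the 40th percentile on none of the 6 arrays and gave 0.37 and −0.11. The mean of its probe sets gave 2.34. Cidea, a brown fat protein of the droplet surface, differed by 6.51 and the Y-linked translation factor gene Eif2s3y by 6.42. Syce2, Prkd1 and Ano1 completed the 12 largest at 6.17, 6.12 and 5.92.

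Towards white adipocytes, the largest difference was that of Dcn, the small proteoglycan decorin, with signals of 4.27, 4.45 and 7.68 in brown adipocytes, against 7410.0, 6008 and 5805 in white adipocytes. Ptn, the growth factor pleiotrophin, had 50.4, 71.3 and 76.4 in brown adipocytes, against 19387, 15919.8 and 17274 in white adipocytes. No array of one group came near the other for either gene. Of the 12 largest, Dcn, Aspn (−6.94), Lum (−6.43), Mmp2 (−6.59) and Postn (−6.34) encode matrix proteins or a matrix protease, and Cdh11 (−6.77) encodes a cadherin of connective tissue cells. S100a8 (−6.35) and Camp (−6.30) encode antimicrobial proteins best known from neutrophils. The transcription factor gene Maf (−6.62), the kinase gene Dclk1 (−6.23) and Apod (−6.14), which encodes a lipid carrier, made up the rest with Ptn. The 24 genes named here had arrays that did not overlap, by the rule that chose them.

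**Figure D2:**
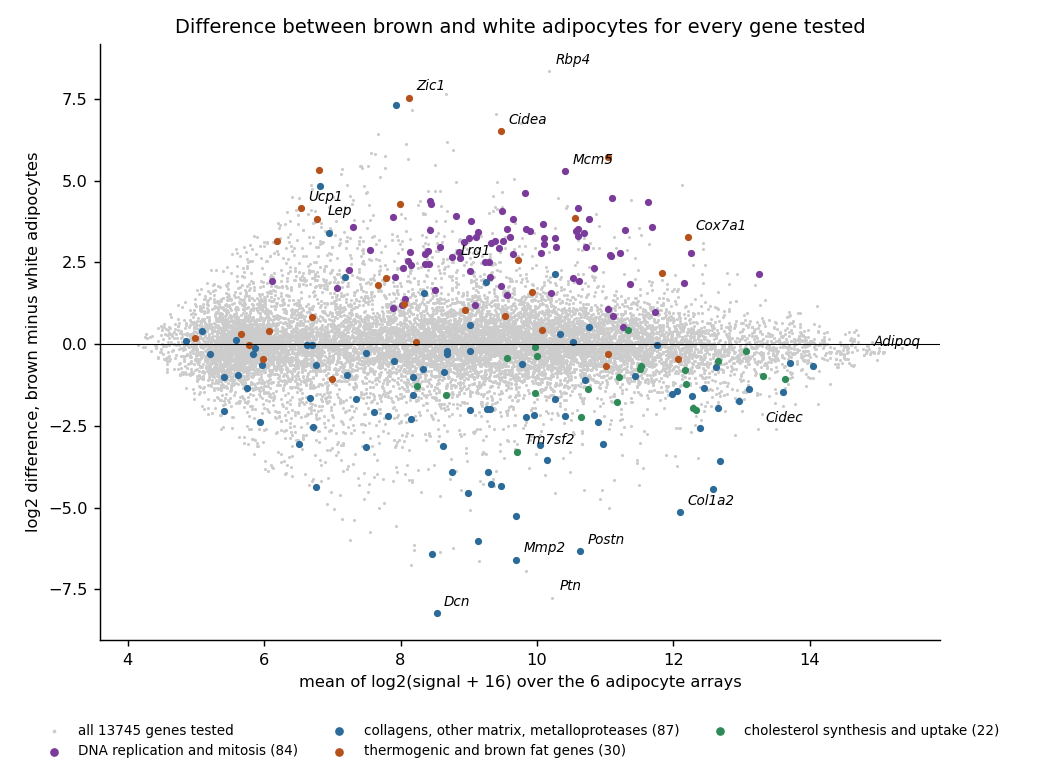
Every gene tested, by its mean log2(signal + 16) over the 6 adipocyte arrays and its log2 difference, brown minus white adipocytes, with 4 groups of lists coloured. All 84 replication and mitosis genes lie above 0, most matrix and cholesterol genes lie below it, and the general adipocyte marker Adipoq lies near 0 at the bright end.

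Genes of DNA replication and of mitosis were higher in brown adipocytes without exception. Of 45 replication genes tested, 45 were called higher in brown adipocytes, 43 of them at least 2-fold, with a median difference of 2.79. Of 39 mitosis genes, 39 were called higher in brown adipocytes, 38 at least 2-fold, with a median of 2.87. Mcm5, a subunit of the helicase that opens DNA for copying, had signals of 8527, 8325 and 8748 in brown adipocytes, against 195, 206 and 205 in white adipocytes (log2 difference 5.29 ± 0.063 SE, adjusted p = 3.19e-11). Uhrf1, which carries DNA methylation over to new strands, had 4503, 4428 and 4501 in brown adipocytes, against 197, 159.7 and 149 in white adipocytes. Mcm6, which encodes a helicase partner of Mcm5, differed by 4.48 and Chaf1b, of the histone chaperone that packs new DNA, by 4.37. Among mitosis genes, Nuf2 of the kinetochore had 1518, 1409 and 1655 in brown adipocytes, against 40.02, 82.1 and 73.4 in white adipocytes, and Cdc20, an activator of the anaphase-promoting complex, had 6761, 6298 and 6521 in brown adipocytes, against 465, 446 and 418 in white adipocytes. The kinase gene Melk differed by 3.87 and Kif2c, a microtubule-depolymerising motor, by 3.75. Brown arrays lay above white arrays for each gene named. The counts of called genes were the same under all 3 other scalings of the arrays.

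The same lists had medians of 0.33 and 0.25 between brown and white preadipocytes. Mcm5 averaged 8998 ± 473 in brown and 6691 ± 318 in white preadipocytes, against 8533 in brown and 202 in white adipocytes. Its wider gap between adipocytes came with a lower signal in the white line, not with a higher one in the brown line. For Mcm5 the line difference after differentiation exceeded that before it by 4.87 (adjusted p = 1.08e-09).

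G1 regulators did not move one way. Of 21 tested, 10 were higher in brown adipocytes and 6 higher in white adipocytes, and their median of 0.095 lay between −0.039 and 0.24 under the other scalings. Beside Cdkn1c, brown adipocytes had higher E2f2 (2.96), a transcription factor of S phase genes, Rbl1 (2.37), a relative of the retinoblastoma protein, and Cdkn2a (2.09), which encodes the inhibitor p16 and ARF. White adipocytes had higher cyclin D1 (Ccnd1, −2.997), cyclin D2 (Ccnd2, −2.33), Cdk6 (−1.28) and the inhibitor gene Cdkn1a (−0.88). Of 21 p53 target genes, 6 were higher in brown and 8 higher in white adipocytes. Mdm2, which encodes the ubiquitin ligase that removes p53, had signals of 878, 752 and 796 in brown adipocytes, against 10128, 10097 and 8761 in white adipocytes and the largest difference of that list (−3.55, or −1.54 with less specific probe sets left out).

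The stretch before the start of the replication and mitosis genes is shown because these members moved together. Promoter windows of RefSeq (build GRCm38.p6, 250 bases before to 50 after the start) were found for 37 of 45 replication genes and 34 of 39 mitosis genes. The letters TTTGGCGC, TTTCCCGC, TTTGCCGC or TTTCGCGC, which E2F factors are known to bind, stood on either strand in 15 of 45 replication windows (33.3%) and 1 of 36 mitosis windows (2.78%), against 2.26% of all 32851 windows. The letters TTTGAA, core of the cell cycle homology region of mitotic genes, stood in 28 of 36 mitosis windows (77.8%) and 6 of 45 replication windows (13.3%), against 17.9% of all windows. Both motifs were chosen after the levels were seen, matches may overlap each other, and a match is a description of letters, not a site. For the 3 members with the largest difference and a match before the start, the 250 bases before it follow with E2F letters (Mcm5, Uhrf1, Mcm6) or TTTGAA on either strand (Cdc20, Kif2c, Mki67) in capitals. They lie at chr8:75109259-75109508 (plus strand, Mcm5), chr17:56304063-56304312 (plus strand, Uhrf1), chr1:128359706-128359955 (minus strand, Mcm6), chr4:118437344-118437593 (minus strand, Cdc20), chr4:117178773-117179022 (minus strand, Kif2c) and chr7:135716380-135716629 (minus strand, Mki67).
Mcm5: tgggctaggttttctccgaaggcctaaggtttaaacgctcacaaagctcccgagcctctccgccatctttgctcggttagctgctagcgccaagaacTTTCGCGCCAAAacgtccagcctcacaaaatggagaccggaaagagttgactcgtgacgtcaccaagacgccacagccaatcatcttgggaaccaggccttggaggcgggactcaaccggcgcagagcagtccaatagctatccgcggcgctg
Uhrf1: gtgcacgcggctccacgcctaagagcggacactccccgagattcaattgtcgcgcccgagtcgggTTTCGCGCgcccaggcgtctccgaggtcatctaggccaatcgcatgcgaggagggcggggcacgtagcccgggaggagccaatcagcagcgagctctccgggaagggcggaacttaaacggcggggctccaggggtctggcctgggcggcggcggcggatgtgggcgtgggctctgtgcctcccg
Mcm6: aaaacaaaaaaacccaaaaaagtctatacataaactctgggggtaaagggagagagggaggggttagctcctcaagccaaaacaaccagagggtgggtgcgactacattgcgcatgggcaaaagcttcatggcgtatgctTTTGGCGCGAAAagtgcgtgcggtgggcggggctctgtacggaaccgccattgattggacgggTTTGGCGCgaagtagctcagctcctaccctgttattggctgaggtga
Cdc20: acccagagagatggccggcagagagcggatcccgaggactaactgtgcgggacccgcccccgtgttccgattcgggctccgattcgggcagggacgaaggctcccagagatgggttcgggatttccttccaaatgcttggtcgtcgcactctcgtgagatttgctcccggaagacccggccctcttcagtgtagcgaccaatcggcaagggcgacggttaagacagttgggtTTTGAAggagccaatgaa
Kif2c: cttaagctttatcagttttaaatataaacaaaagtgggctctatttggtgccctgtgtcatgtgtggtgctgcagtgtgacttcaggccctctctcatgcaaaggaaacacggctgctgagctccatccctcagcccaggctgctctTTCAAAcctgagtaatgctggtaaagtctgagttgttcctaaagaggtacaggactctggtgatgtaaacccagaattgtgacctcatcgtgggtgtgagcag
Mki67: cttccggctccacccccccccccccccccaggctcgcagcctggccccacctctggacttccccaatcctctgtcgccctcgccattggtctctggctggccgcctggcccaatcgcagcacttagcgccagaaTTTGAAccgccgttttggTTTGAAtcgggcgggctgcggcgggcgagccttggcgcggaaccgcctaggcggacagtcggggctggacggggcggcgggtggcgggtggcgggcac
Mcm5, Uhrf1, Cdc20 and Kif2c have their levels above, and Mki67, the proliferation antigen Ki-67, averaged 5246 ± 304 in brown and 442 ± 56.4 in white adipocytes.

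Thermogenic genes were mostly higher in brown adipocytes. Of 30 tested, 19 were called higher in brown adipocytes, 3 higher in white adipocytes and 8 were not called, with a median of 1.41. Ucp1 had signals of 333, 468 and 346 in brown adipocytes, against 8.36, 5.28 and 4.79 in white adipocytes (log2 difference 4.16 ± 0.32 SE, adjusted p = 1.62e-06), and all 3 white adipocyte arrays were below the 40th percentile. Because the white signal sat near the floor, the size of this difference was 5.76 with a pseudocount of 1 and 2.66 with one of 64. Cidea had 6365, 6960.4 and 6936 in brown adipocytes, against 71.1, 91.00 and 27.9 in white adipocytes. Mb, the oxygen store myoglobin, had 14602, 17226 and 14180.3 in brown adipocytes, against 259.9, 363 and 215 in white adipocytes, and both genes showed a wide gap between the groups. Prdm16, which keeps brown precursors from the muscle fate, had 668, 722 and 699 in brown adipocytes, against 0.8, 2.84 and 1.64 in white adipocytes. That is its brightest probe set, with a difference of 5.33, and its 3 other probe sets gave 1.92, 0.59 and 1.41. With a pseudocount of 1, where another of them stood for the gene, Prdm16 differed by 0.71 and was not called (adjusted p = 0.0521). Ebf2, a transcription factor that marks brown precursors, averaged 5705 ± 173 in brown and 380.4 ± 24.6 in white adipocytes, and Ppara, the fatty acid sensor that drives oxidation genes, 1117 ± 103 in brown and 42.1 ± 10.5 in white adipocytes. Ppargc1a averaged 2045 ± 189 in brown and 328 ± 11.7 in white adipocytes (log2 difference 2.58 ± 0.14 SE, adjusted p = 1.07e-07).

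Not every thermogenic gene followed. Dio2, the enzyme that activates thyroid hormone, had 45.6, 45.8 and 26.7 in brown adipocytes, against 34.7, 60.6 and 27.1 in white adipocytes and was not called (adjusted p = 0.973). Cox8b, a cytochrome oxidase subunit of brown fat and muscle, had 3081, 3704 and 4269 in brown adipocytes, against 5338, 5533 and 4324 in white adipocytes and was not called (adjusted p = 0.175). Arrays of the groups overlapped for Dio2, and those of Cox8b were slightly lower in brown adipocytes without overlap. Higher in white adipocytes were Ucp3 (−1.08), a relative of Ucp1 found in muscle, Acot2 (−0.69), a mitochondrial thioesterase, and Pank1 (−0.31), which starts coenzyme A synthesis. The call of Acot2 was lost without brown adipocyte replicate 1 (adjusted p = 0.0917) and without white adipocyte replicate 3. The 3 other probe sets of Pank1 ran from −0.96 to 1.17, so its direction depends on the probe set.

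Of 14 genes of creatine, calcium and ADP/ATP cycling, 3 were higher in brown adipocytes and 4 higher in white adipocytes. Brain-type creatine kinase, Ckb, had 330.4, 437 and 450.0 in brown adipocytes, against 50.4, 31.03 and 6.37 in white adipocytes (3.34) and the calcium pump gene Atp2a3 averaged 1121 ± 85.1 in brown and 279 ± 23.8 in white adipocytes. Among 6 beige fat markers tested, Slc36a2, an amino acid transporter also used as a brown fat marker, averaged 6697 ± 113 in brown and 539.8 ± 39.9 in white adipocytes, and Shox2 averaged 167 ± 16.6 in brown and 1859 ± 43.97 in white adipocytes. Of 13 genes of thyroid hormone action, 5 were higher in brown adipocytes and 2 higher in white adipocytes. Ucp1 led that list too, followed by Bcl3 (1.69).

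Subunits of the respiratory chain had small median differences. Complex I of the respiratory chain had 34 members tested, of which 15 were higher in brown adipocytes and 2 higher in white adipocytes, with a median of 0.15 and no member at least 2-fold apart. That count ran from 9 higher in brown and 5 higher in white adipocytes when the arrays were scaled to equal medians to 27 and 1 after quantile normalization, so it rests on the scaling. Complexes II and III had 9 of 17 higher in brown adipocytes and none called higher in white adipocytes (0.19, with 5 to 14 higher under other scalings). Cytochrome oxidase subunits had 5 of 16 higher in brown and 1 higher in white adipocytes, and their median of 0.060 changed sign between scalings. Within that complex, Cox7a1, the isoform of heart and brown fat, had 14349, 15434 and 14526 in brown adipocytes, against 1559.8, 1518 and 1441 in white adipocytes (log2 difference 3.28 ± 0.12 SE, adjusted p = 8.22e-09). Its widely expressed partner Cox7a2 averaged 31429 ± 1297 in brown and 30239.5 ± 1809 in white adipocytes and was not called (0.057). Cox7a2 was called higher in brown adipocytes after quantile normalization (0.26, adjusted p = 0.00175) and with less specific probe sets left out (0.30). Cox6b2, best known from testis, was higher in brown adipocytes (2.36). ATP synthase had 4 of 16 higher in brown and 2 higher in white adipocytes, with a median whose sign also turned with the scaling. Its inhibitor gene Atpif1 had the largest difference of that list (1.16), but with less specific probe sets left out it was 0.11 and not called (adjusted p = 0.632).

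Of 31 genes of mitochondrial biogenesis and transport, 17 were higher in brown adipocytes and 7 higher in white adipocytes, with a median of 0.30. Chchd10, a small protein of the inner membrane folds, had 24572, 24515 and 23318 in brown adipocytes, against 589, 897 and 1029.5 in white adipocytes, one of the widest gaps at such a high signal. Coq8a, which serves coenzyme Q synthesis, differed by 3.28, and Tfam, which packs and transcribes mitochondrial DNA, by 1.42. Slc25a10, the dicarboxylate carrier that feeds lipid synthesis in white fat, averaged 1105 ± 82.6 in brown and 6365 ± 316 in white adipocytes (−2.51). Of 49 mitochondrial ribosome genes, 26 were higher in brown adipocytes and 11 higher in white adipocytes. These counts were 18 and 11 with equal medians, and 30 and 4 with arrays scaled to the hybridization controls. Cytosolic ribosomal protein genes had 1 of 19 higher in brown and 10 higher in white adipocytes, which became 2 and 1 when arrays were scaled to the hybridization controls.

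Of 28 genes that serve the citric acid cycle or feed pyruvate into it, 16 were higher in brown adipocytes and 5 higher in white adipocytes (median 0.24). With equal medians these counts were 10 and 7 (median 0.10). They were 18 and 5 after quantile normalization and with arrays scaled to the hybridization controls. The kinases that shut pyruvate dehydrogenase differed by isoform. Pdk4, the isoform induced in fasting, averaged 6934 ± 672 in brown and 1101 ± 67.5 in white adipocytes, and Pdk2 differed by 1.45 in the same direction, a call that was lost with a pseudocount of 1 (adjusted p = 0.12). Pdk3 averaged 219 ± 37.2 in brown and 1413 ± 195 in white adipocytes. Pdk1 was higher in white adipocytes as well (−0.58). Pcx, pyruvate carboxylase, which refills the cycle for fatty acid and glycerol synthesis, averaged 9336 ± 242 in brown and 19108 ± 725 in white adipocytes.

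Oxidation genes as a group stood near 0. Mitochondrial fatty acid oxidation had 7 of 24 higher in brown and 8 higher in white adipocytes, with a median of 0.013 that changed sign with the scaling. Acadl, long-chain acyl-CoA dehydrogenase, averaged 20210.0 ± 376 in brown and 10419 ± 432 in white adipocytes, while the short-chain enzyme Acads averaged 2799 ± 116 in brown and 5098 ± 688 in white adipocytes. Peroxisome genes had 5 of 28 higher in brown and 10 higher in white adipocytes. Acaa1b, a peroxisomal thiolase, averaged 9892 ± 1099 in brown and 839.6 ± 163 in white adipocytes, and Abcd2, a fatty acid importer of the peroxisome, averaged 369 ± 22.2 in brown and 2139.7 ± 101 in white adipocytes.

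**Figure D3:**
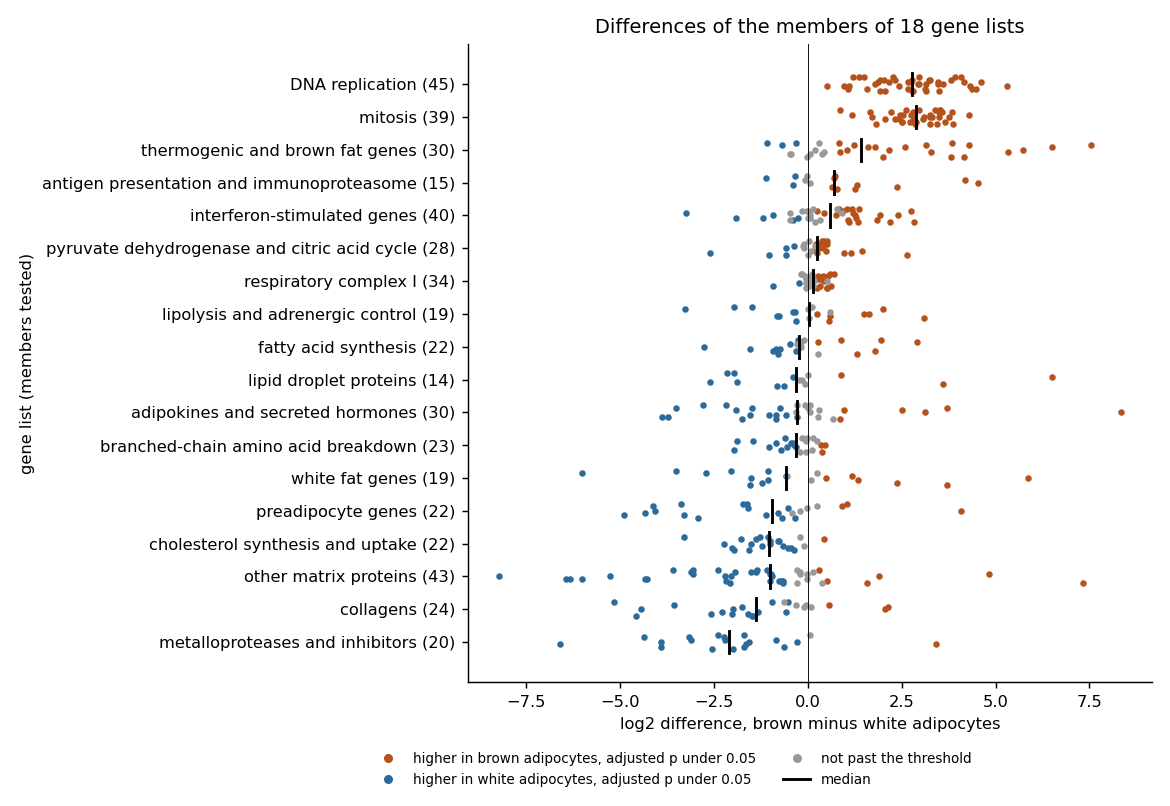
Log2 differences, brown minus white adipocytes, of the tested members of 18 lists (one point per gene, number of members in brackets, black bar at the median), coloured by the call. The replication and mitosis lists lie wholly right of 0, the matrix, metalloprotease and cholesterol lists mostly left of it, and most metabolic lists straddle it.

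Lipid droplet genes were more often higher in white adipocytes, with Cidea and Plin5 the other way. Of 14 tested, 3 were higher in brown and 7 higher in white adipocytes (median −0.31). Plin5, the droplet coat of oxidative tissues, had 362, 413 and 370.4 in brown adipocytes, against 25.5, 29.01 and 3.06 in white adipocytes, and Bscl2, the droplet assembly protein seipin, differed by 0.88. Cidec, which helps droplets fuse into one, had 3834, 4052 and 3880.4 in brown adipocytes, against 24185, 24848 and 22482 in white adipocytes (log2 difference −2.60 ± 0.19 SE, adjusted p = 1.11e-06). Plin4, a coat of small droplets in white fat, had 3217, 3403 and 3446 in brown adipocytes, against 12749, 13156 and 11220.5 in white adipocytes. Hilpda (−2.16), an inhibitor of lipolysis, and Abhd5 (−1.97), the coactivator of ATGL, were higher in white adipocytes as well.

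Enzymes of fatty acid and triglyceride synthesis went both ways. Of 22 fatty acid synthesis genes, 6 were higher in brown and 10 higher in white adipocytes, counts that became 7 and 7 under 2 of the other scalings. Acacb, the acetyl-CoA carboxylase at the mitochondrial surface, averaged 2209.8 ± 33.5 in brown and 283 ± 44.3 in white adipocytes, and the elongase gene Elovl6 1541 ± 132 in brown and 391 ± 56.97 in white adipocytes. Elovl3, an elongase typical of brown fat, differed by 1.80 and Elovl5 by 1.32. Fads3, of the desaturase family, averaged 906 ± 37.3 in brown and 6267 ± 699 in white adipocytes, and the citrate carrier gene Slc25a1 2313 ± 70.5 in brown and 6719.6 ± 453 in white adipocytes. Of 17 triglyceride synthesis genes, 6 were higher in brown and 6 higher in white adipocytes. Gpd2, the mitochondrial glycerol phosphate dehydrogenase that is high in brown fat, averaged 6258 ± 90.96 in brown and 1289 ± 91.8 in white adipocytes, and Aqp7, the glycerol channel, 1325 ± 32.02 in brown and 309 ± 28.6 in white adipocytes. Pck1, which makes glycerol phosphate from pyruvate, averaged 1082 ± 127 in brown and 5417 ± 884 in white adipocytes, and the acyltransferase genes Gpat3 and Agpat2 differed by −2.17 and −1.57.

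Uptake and lipolysis genes were mixed too. Of 16 genes of fatty acid uptake and activation, 3 were higher in brown and 8 higher in white adipocytes, with small differences led by Acsl5 (1.28) and the lipoprotein receptor gene Vldlr (−0.84, or −0.36 and not called with less specific probe sets left out). Of 19 lipolysis genes, 7 were higher in brown and 8 higher in white adipocytes. Pde3b, the phosphodiesterase through which insulin halts lipolysis, had 15844, 16889 and 15519 in brown adipocytes, against 1919, 1838 and 1854 in white adipocytes. Hcar2, the niacin receptor that restrains lipolysis, had 253, 230.4 and 158 in brown adipocytes, against 2060.5, 2166 and 2275 in white adipocytes. The groups were far apart for both genes. Pnpla2, which encodes the lipase ATGL, differed by 0.56 and its inhibitor G0s2 by −0.82. The call of Pnpla2 was lost with less specific probe sets left out (adjusted p = 0.177).

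Cholesterol synthesis genes were higher in white adipocytes almost throughout. Of 22 members of the synthesis and uptake list tested, 1 was higher in brown adipocytes, 19 were higher in white adipocytes and 2 were not called (median −1.03). Tm7sf2, a sterol reductase, had 262, 279.7 and 218 in brown adipocytes, against 2560.1, 2721 and 2521 in white adipocytes. Sc5d, a sterol desaturase, had 803, 712 and 665 in brown adipocytes, against 3439, 3354 and 3630.3 in white adipocytes, and its brown arrays also lay wholly below its white arrays. That is its brightest probe set, with a difference of −2.24, and its 2 other probe sets gave −0.09 and −0.76. Msmo1 averaged 2551 ± 98.5 in brown and 10358 ± 438 in white adipocytes and Fdps, which makes farnesyl diphosphate, 2536 ± 280.1 in brown and 9878 ± 670.3 in white adipocytes. The member higher in brown adipocytes was Abcg1 (0.42), which exports cholesterol rather than making it, and its call was lost without any 1 of 5 of the 6 arrays (adjusted p = 0.08 without brown adipocyte replicate 2). Under the other scalings, 18 to 20 members were higher in white adipocytes. The sterol element letters TCACNCCAC stood in 1 of 20 promoter windows of this list, against 1.24% of all windows. A direct repeat of AGGNCA with 1 base between, which PPAR and RXR pairs are known to bind, was searched in other lists. It stood in 0 of 20 windows of fatty acid oxidation genes, 0 of 27 of peroxisome genes and 0 of 17 of lipid droplet genes, against 0.381% of all windows.

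Glycolysis and the breakdown of branched-chain amino acids leaned towards white adipocytes, while insulin signalling and glycogen genes went both ways. Glycolysis had 3 of 18 higher in brown and 10 higher in white adipocytes (median −0.39). Aldoc, the brain-type aldolase, was higher in brown adipocytes (2.81), and hexokinase 2, Hk2, averaged 4555 ± 213 in brown and 10118 ± 351 in white adipocytes. Slc2a1, the basal glucose transporter GLUT1, had 2717, 3035 and 2435 in brown adipocytes, against 10572, 11120.3 and 12317 in white adipocytes. Slc2a4, the insulin-responsive transporter GLUT4, had 2786, 2963 and 3021 in brown adipocytes, against 3308, 3360.2 and 3377 in white adipocytes and was not called (−0.20, adjusted p = 0.697). Of 21 insulin signalling genes, 8 were higher in brown and 5 higher in white adipocytes. Grb10, an imprinted adaptor that dampens the insulin receptor, differed by 5.48 and Irs2, a receptor substrate, by 1.68. The 2 other probe sets of Grb10 gave 1.13 and 1.59, and the mean of its probe sets gave 2.73. Glycogen genes had 5 of 16 higher in brown and 6 higher in white adipocytes. Ppp1r3c, a glycogen-targeting subunit of phosphatase 1, averaged 2963 ± 802 in brown and 20102 ± 14.1 in white adipocytes, while the liver-type phosphorylase gene Pygl averaged 1509 ± 144 in brown and 354 ± 77.7 in white adipocytes. Breakdown of branched-chain amino acids had 3 of 23 higher in brown and 12 higher in white adipocytes (median −0.30). Bcat2, its first enzyme, averaged 215 ± 27.8 in brown and 878 ± 33.1 in white adipocytes and Mccc1, of the leucine route, 2590.3 ± 124 in brown and 9520.3 ± 302 in white adipocytes.

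Secreted hormones of fat differed member by member. Of 30 adipokine genes tested, 6 were higher in brown and 15 higher in white adipocytes (median −0.29). Lep, which encodes leptin and is used as a white fat gene, had 361, 419.6 and 413 in brown adipocytes, against 10.3, 8.28 and 32.8 in white adipocytes, so the higher signal was in brown adipocytes on all 3 arrays. Its white adipocyte arrays were all below the 40th percentile, and the difference of 3.71 became 4.71 with a pseudocount of 1 and 2.52 with one of 64. Retn, resistin, had 8343, 6871 and 7000.3 in brown adipocytes, against 23304, 21591 and 19034 in white adipocytes (log2 difference −1.52 ± 0.22 SE, adjusted p = 0.000153). Fndc5, the precursor of irisin, differed by 3.12. Towards white adipocytes, Igf2 averaged 22.3 ± 11.4 in brown and 548 ± 178 in white adipocytes, the chemokine gene Cxcl12 1162 ± 158 in brown and 15501 ± 1284 in white adipocytes and Agt, angiotensinogen, 387 ± 70.03 in brown and 4479 ± 157 in white adipocytes. Inhbb, an activin subunit, differed by −2.80.

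Lrg1, which encodes the secreted leucine-rich alpha-2-glycoprotein that the study's title calls an adipokine, was higher in brown adipocytes. Its signals were 1004, 1086 and 1003 in brown adipocytes, against 162, 178 and 161 in white adipocytes, with no overlap (log2 difference 2.52 ± 0.097 SE, adjusted p = 9.53e-09). Before differentiation, Lrg1 averaged 4.67 ± 2.28 in brown and 3.49 ± 1.75 in white preadipocytes, and the line difference after differentiation exceeded that before it by 2.43 (adjusted p = 3.09e-07). Acute-phase proteins as a list did not move one way. Of 18 tested, 5 were higher in brown and 4 higher in white adipocytes, with a median of −0.00050 that changed sign with the scaling. Fga, a fibrinogen chain, differed by 1.94 and Steap4, a metalloreductase of fat, by 1.51. Both calls were lost with a pseudocount of 1 (adjusted p = 0.0551 for Fga and 0.0648 for Steap4). The serpin gene Serpina3n had 3.58, 8.12 and 2.98 in brown adipocytes, against 149, 158 and 153 in white adipocytes and Orm2, an orosomucoid, 120.0, 99.8 and 128 in brown adipocytes, against 976, 852 and 869.5 in white adipocytes. Both were higher in white adipocytes.

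**Figure D4:**
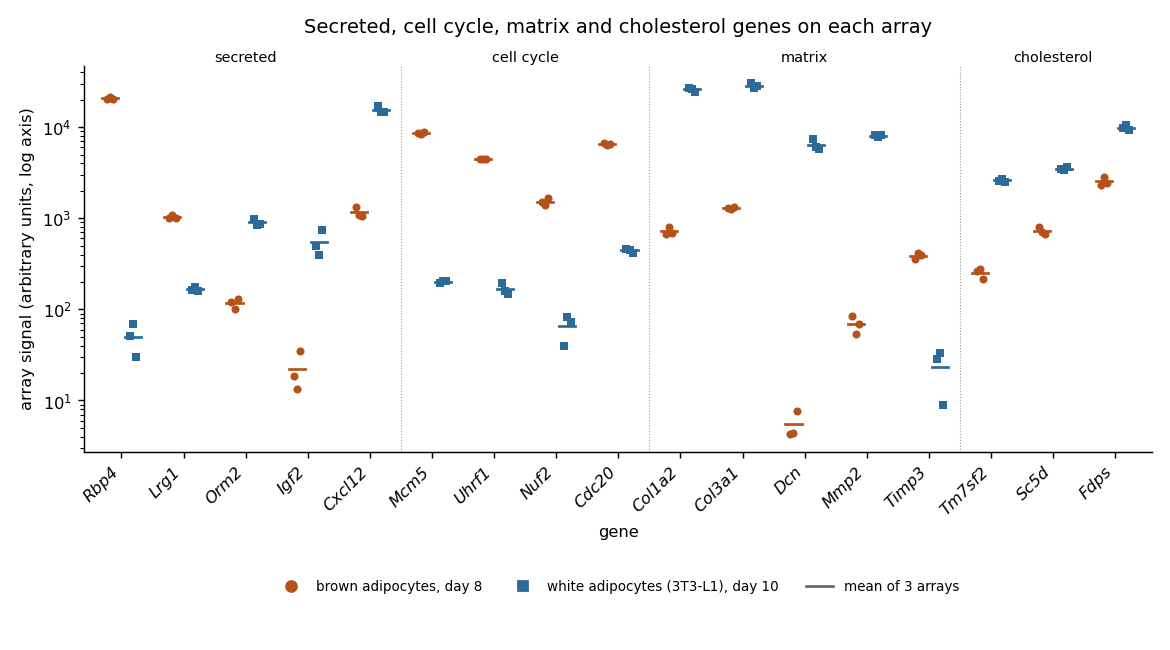
Signals of 17 secreted, cell cycle, matrix and cholesterol genes on each array, on a log axis, with brown adipocytes (circles) left of white adipocytes (squares) and a bar at the mean of 3 arrays. Rbp4, Lrg1, the 4 cell cycle genes and Timp3 are higher in brown adipocytes, and Orm2, Igf2, Cxcl12, the other matrix genes and the cholesterol genes are higher in white adipocytes.

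Adipogenic transcription factors were split, 10 of 24 being higher in brown and 9 higher in white adipocytes. Cebpa, which encodes C/EBP alpha, had 5526, 4741 and 5404 in brown adipocytes, against 1551, 1832 and 1495 in white adipocytes (log2 difference 1.68 ± 0.13 SE, adjusted p = 1.74e-06). Srebf1, the regulator of fatty acid synthesis, averaged 15068 ± 445 in brown and 3311 ± 86.7 in white adipocytes, and Mlxipl, the glucose-responsive factor ChREBP, 2667 ± 94.6 in brown and 145 ± 19.1 in white adipocytes. Id2, an inhibitor of basic helix-loop-helix factors, averaged 2474 ± 113 in brown and 65.3 ± 8.64 in white adipocytes. Ddit3, which encodes CHOP, an inhibitor of C/EBP factors and a stress marker, averaged 1892 ± 371 in brown and 7431 ± 1633 in white adipocytes. Another probe set of Ddit3 averaged 135 in brown and 137 in white adipocytes, a difference of −0.07. Cebpd differed by −1.20.

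Collagens and other matrix genes were mostly higher in white adipocytes. Of 24 collagen genes tested, 3 were higher in brown and 16 higher in white adipocytes (median −1.39). Col1a2, a chain of type I collagen, had 674, 797 and 690.1 in brown adipocytes, against 27203, 26425 and 24392 in white adipocytes (log2 difference −5.15 ± 0.092 SE, adjusted p = 1.41e-10). Col1a1, its partner chain, had 69.7, 102 and 97.2 in brown adipocytes, against 2796, 2212 and 2429 in white adipocytes. Col3a1, the fibrillar collagen of soft tissue, averaged 1302 ± 35.5 in brown and 28516 ± 1716 in white adipocytes, and Col5a1, which starts fibrils, 319.8 ± 57.98 in brown and 3892 ± 139.8 in white adipocytes. Col27a1 (2.14), Col15a1 (2.04) of basement membranes and Col12a1 (0.57) were higher in brown adipocytes, although another probe set of Col12a1 gave −0.37. Of 43 other matrix genes, 6 were higher in brown and 29 higher in white adipocytes (median −1.004). Beside Dcn, Lum and Postn, which organise collagen fibrils, Dpt, dermatopontin, had 57.01, 40.5 and 67.8 in brown adipocytes, against 4915, 4061 and 4657 in white adipocytes. Efemp1 and Ccn2, a matricellular target of YAP and TGF-beta, were the largest the other way, Ccn2 averaging 588 ± 85.03 in brown and 5.42 ± 4.14 in white adipocytes.

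Metalloproteases and their inhibitors had the lowest median of the 60 lists, −2.10. Of 20 tested, 1 was higher in brown adipocytes, 18 were higher in white adipocytes and 1 was not called. Mmp2, the gelatinase that cuts denatured collagen, had 85.5, 54.1 and 68.5 in brown adipocytes, against 8291, 7871 and 8150.4 in white adipocytes, and Mmp13, a collagenase, 6.08, 21.8 and 0.366 in brown adipocytes, against 516, 481 and 433 in white adipocytes. The inhibitors Timp2 and Timp4 followed the proteases, with averages of 149 ± 52.7 in brown and 2398 ± 261 in white adipocytes for Timp2 and 96.5 ± 12.4 in brown and 1662 ± 75.8 in white adipocytes for Timp4. Timp3, the inhibitor bound to the matrix, went the other way with 354, 414 and 392 in brown adipocytes, against 28.5, 32.9 and 8.89 in white adipocytes. Matrix, collagen and metalloprotease counts stayed within 1 gene of these under the 3 other scalings.

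Genes of preadipocytes and of the contractile cytoskeleton leaned the same way. Of 22 preadipocyte genes, 3 were higher in brown and 15 higher in white adipocytes (median −0.94). Dlk1, a preadipocyte protein that blocks differentiation, had 31.5, 31.9 and 32.1 in brown adipocytes, against 827, 702 and 808 in white adipocytes, and Pdgfra, a receptor of mesenchymal progenitors, 147, 117 and 129.7 in brown adipocytes, against 3265, 2737 and 2908 in white adipocytes. Dlk1 was below the 40th percentile on every brown adipocyte array, and its difference of −4.05 was −1.70 with less specific probe sets left out. Thy1 (−4.89) and the secreted Wnt antagonist gene Sfrp2 (−4.13) were higher in white adipocytes, and Nt5e (4.08), the ectonucleotidase CD73, was higher in brown adipocytes. Summed over Dlk1, Pdgfra and Cd34, signals were 170.5 to 208 on brown adipocyte arrays and 3461 to 4115 on white adipocyte arrays, and the part of undifferentiated cells in the matrix genes was not tested. Actin and smooth muscle genes had 6 of 27 higher in brown and 15 higher in white adipocytes, with Tagln2 (1.70) and Cnn2 (−2.71) the largest in each direction.

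Secreted growth factors were also mostly higher in white adipocytes. Of 33 angiogenic and other growth factors, 3 were higher in brown and 20 higher in white adipocytes (median −0.73). After Ptn, the guidance factors Slit2, Sema3c and Slit3 differed by −4.18, −3.85 and −3.62. Angptl4, the inhibitor of lipoprotein lipase, averaged 11984 ± 422 in brown and 6171 ± 180.2 in white adipocytes, and Nrg4, a factor released by brown fat, 977 ± 59.7 in brown and 536 ± 64.7 in white adipocytes. The IGF axis had 1 of 13 higher in brown and 9 higher in white adipocytes. Ghr, the growth hormone receptor, averaged 8007 ± 131 in brown and 20380.2 ± 1567 in white adipocytes, and Igf1r, the receptor of IGF1, differed by 0.58. TGF-beta and BMP signalling had 9 of 37 higher in brown and 19 higher in white adipocytes. Ligands Tgfb2 (−2.57) and Tgfb3 (−2.87) and the secreted binder Fstl1 (−3.03) were higher in white adipocytes. The receptors Acvr1c and Tgfbr2 (1.69) and the BMP targets Id2 and Id3 (2.09) were higher in brown adipocytes. Of 24 Wnt genes, 4 were higher in brown and 8 higher in white adipocytes, led by the transcription factor Lef1 (−3.02) and the ligand Wnt5a (−2.79) after Sfrp2.

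Interferon-stimulated genes were more often higher in brown adipocytes. Of 40 tested, 20 were called higher in brown adipocytes, 6 higher in white adipocytes and 14 were not called (median 0.59). Rtp4 had 1286, 1500.2 and 1291 in brown adipocytes, against 219, 187 and 137 in white adipocytes and Cxcl10, a chemokine for T cells, 346, 311 and 244 in brown adipocytes, against 48.01, 49.7 and 8.71 in white adipocytes. Each gene's brown arrays lay above its white arrays. Oasl2 differed by 2.39 and Gbp3, a guanylate-binding GTPase, by 2.18. Ifi204 (−3.25) and Ifi27l2a (−1.90) were higher in white adipocytes. Between brown and white preadipocytes the median of the list was 2.95. Of 15 antigen presentation genes, 9 were higher in brown and 3 higher in white adipocytes (median 0.71). The immunoproteasome subunits Psmb9 and Psmb8 had 2978, 3159.6 and 3307 in brown adipocytes, against 156, 98.3 and 113 in white adipocytes for Psmb9 and 3049 ± 184 in brown and 153 ± 13.1 in white adipocytes on average for Psmb8. Tap1, which carries peptides into the endoplasmic reticulum, differed by 2.37.

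The promoter windows of the interferon-stimulated genes are shown because some hold the letters of the interferon-stimulated response element, known from genes of this class. The letters GAAA, any 2 bases and GAAA again stood in a row on either strand in 19 of 34 windows of 28 matched genes (55.9%) and in 3 of 14 windows of antigen presentation genes (21.4%), against 3.44% of all windows. The 3 members with the largest difference and a match before the start follow, with the matching letters in capitals, at chr5:92348890-92349139 (minus strand, Cxcl10), chr3:142559794-142560043 (plus strand, Gbp3) and chr12:26456453-26456702 (minus strand, Rsad2). Rsad2, the antiviral enzyme viperin, differed by 1.84.
Cxcl10: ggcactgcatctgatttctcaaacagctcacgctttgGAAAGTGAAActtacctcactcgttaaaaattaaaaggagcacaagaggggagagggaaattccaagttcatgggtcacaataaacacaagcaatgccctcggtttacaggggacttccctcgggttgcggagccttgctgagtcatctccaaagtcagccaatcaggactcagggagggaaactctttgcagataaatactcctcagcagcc
Gbp3: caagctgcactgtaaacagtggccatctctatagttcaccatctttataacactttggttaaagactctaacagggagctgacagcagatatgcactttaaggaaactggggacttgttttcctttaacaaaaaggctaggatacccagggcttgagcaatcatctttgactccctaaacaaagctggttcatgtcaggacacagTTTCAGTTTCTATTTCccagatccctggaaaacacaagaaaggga
Rsad2: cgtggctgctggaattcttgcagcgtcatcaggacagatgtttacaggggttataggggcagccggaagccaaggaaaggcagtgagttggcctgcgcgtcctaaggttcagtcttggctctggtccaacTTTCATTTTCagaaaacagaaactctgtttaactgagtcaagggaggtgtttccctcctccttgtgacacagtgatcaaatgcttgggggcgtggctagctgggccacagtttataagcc
Cxcl10 had 1 match, Gbp3 had 2 that overlap and Rsad2 had 1.

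Of 27 chemokine and inflammatory genes, 7 were higher in brown and 12 higher in white adipocytes. Ccl9 averaged 1557 ± 51.5 in brown and 193 ± 29.6 in white adipocytes and Cxcl1 1217 ± 417 in brown and 312 ± 75.3 in white adipocytes. Vcam1, an adhesion molecule of stromal cells, averaged 119.6 ± 11.5 in brown and 2438 ± 269.9 in white adipocytes, and Cxcl5 had 5.53, 0.162 and 3.50 in brown adipocytes, against 240.1, 227 and 268 in white adipocytes. Il6 averaged 22.0 in brown and 111 in white adipocytes (−1.74). Complement genes had 2 of 13 higher in brown and 5 higher in white adipocytes, among them C1s1 (−2.51) and the inhibitor Cd59a (−3.33).

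Hox genes, which mark position along the body, went both ways. Of 23 tested, 11 were higher in brown and 6 higher in white adipocytes. In the A cluster, 3 of 7 were higher in brown and 2 higher in white adipocytes, and in the B cluster 2 of 6 were higher in brown and 0 higher in white. In the C cluster, 6 of 7 were higher in brown and 1 higher in white adipocytes, and in the D cluster 0 of 3 were higher in brown and 3 higher in white. Hoxc8 had 1313, 1450.2 and 1532 in brown adipocytes, against 7.75, 19.98 and 2.33 in white adipocytes, and Hoxc5 (4.05) and Hoxc4 (3.77) of the same cluster went with it. Hoxd8 had 55.2, 49.3 and 81.5 in brown adipocytes, against 1940.3, 1819 and 1924 in white adipocytes, and Hoxd9 (−4.62) and Hoxd3 (−2.49) went with that gene. No array of one group reached the other for Hoxc8 or Hoxd8. These differences stood already between preadipocytes, where they were 7.30 for Hoxc8 and −4.90 for Hoxd8. Among 29 other positional factors, 5 were higher in brown and 14 higher in white adipocytes, with Eya4 (2.81) after Zic1 on one side and Eya1 (−3.66) and Prrx2 (−3.08) on the other. Of 16 imprinted growth genes, 3 were higher in brown (Cdkn1c, Grb10 and Plagl1) and 11 higher in white adipocytes, among them Ndn (−4.87), Dlk1, Igf2 and Peg10 (−2.40). Plagl1 differed by 3.01, but by 0.29 and without a call when less specific probe sets were left out (adjusted p = 0.504). The Y-linked genes Eif2s3y, Kdm5d (4.60) and Uty (4.50) were higher in brown adipocytes, and all 3 were below the 40th percentile on every white adipocyte array.

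Of 20 genes known to respond to glucocorticoids, 7 were higher in brown and 10 higher in white adipocytes, with Fkbp5 (1.03), Zbtb16 (1.05) and Klf9 (0.98) on the brown side. Ddit4, a brake on mTOR, averaged 795 ± 161 in brown and 10050.4 ± 837 in white adipocytes, and the kinase gene Sgk1 274 ± 25.9 in brown and 2391 ± 286 in white adipocytes. Prostaglandin genes had 2 of 18 higher in brown and 10 higher in white adipocytes. Cbr1, a carbonyl reductase, averaged 8607 ± 815 in brown and 1978 ± 61.2 in white adipocytes, while prostacyclin synthase, Ptgis, averaged 65.4 ± 50.2 in brown and 1229 ± 61.98 in white adipocytes and the receptor gene Ptgfr 35.1 ± 4.48 in brown and 782 ± 50.03 in white adipocytes. The difference of Ptgfr was −3.97, or −2.63 without white adipocyte replicate 1. Indomethacin, an inhibitor of prostaglandin synthesis, was given to the brown line alone. Of 34 oxidative stress genes, 12 were higher in brown and 14 higher in white adipocytes. Gpx3, the secreted glutathione peroxidase, had 1118, 782 and 812 in brown adipocytes, against 6.93, 4.22 and 7.35 in white adipocytes, and Hmox1, heme oxygenase, had 406, 496 and 334 in brown adipocytes, against 7804, 9405 and 11147 in white adipocytes. These lay at opposite ends of the list together with Gpx8 (−4.56). Retinoid genes had 5 of 18 higher in brown and 9 higher in white adipocytes, with Rbp4 at one end and Aldh1a7 (−3.48) at the other. Of 18 clock genes, 9 were higher in brown and 5 higher in white adipocytes, led by Hlf (2.84). All 11 tested carbonic anhydrases and transporters were called, 5 higher in brown adipocytes, led by Car2 (5.04), and 6 higher in white adipocytes, led by Aqp1 (−2.07).

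Defining markers of macrophages, endothelium and skeletal muscle had signals of at most 158 on every adipocyte array, while some genes of longer lists were brighter. The macrophage markers Adgre1, Cd68 and Csf1r were not called, Ptprc was too dim to test, and their summed signal was 250.4 to 269.7 on brown adipocyte arrays and 223.7 to 279.4 on white adipocyte arrays. None of the defining markers was listed at 0. In the longer macrophage list of 17 genes, 9 were tested and 3 were higher in white adipocytes, the lysozyme genes Lyz1 and Lyz2 and Cd14 (−0.78). Lyz1 had 7.17, 10.4 and 11.4 in brown adipocytes, against 1342, 1356 and 1348 in white adipocytes (−5.74, or −1.48 with less specific probe sets left out), and Lyz2 had 23.5, 2.94 and 18.7 in brown adipocytes, against 459, 479.6 and 539 in white adipocytes (−4.10). The summed signal of the 9 tested genes was 558.0 to 599.6 on brown adipocyte arrays and 2408 to 2521 on white adipocyte arrays, and its part in other differences was not tested. The endothelial markers Pecam1, Cdh5, Kdr and Tek were all too dim to test, although 2 of 5 tested genes of a longer list were higher in brown adipocytes, Plvap (596 ± 49.4 in brown and 46.1 ± 3.79 in white adipocytes, a difference of 3.30) and Egfl7 (1.77, or 1.07 without brown adipocyte replicate 1). Of 5 skeletal muscle markers, Acta1 was higher in white adipocytes (−0.67), Myod1 and Ckm were not called, and Myog and Myh3 were too dim. In neural and Schwann cell lists, 4 of 6 tested genes were higher in brown adipocytes, with Map2 (2.33) and Sox10 (1.93) the largest. Map2 averaged 673 ± 55.9 in brown and 121 ± 15.3 in white adipocytes.

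Part of the large differences was also present between the preadipocytes, which share no array with the adipocytes. Of the 1625 genes at least 2-fold higher in brown adipocytes, 556 (34.2%) were also at least 2-fold higher in brown preadipocytes, where they made up 35.3% of 1573 such genes, and 24 (1.48%) were at least 2-fold higher in white preadipocytes. In the preadipocytes as a whole, 11.4% of genes were at least 2-fold higher in the brown line and 6.24% in the white line. Of the 1530 genes at least 2-fold higher in white adipocytes, 399 (26.1%) were so in preadipocytes, 46.5% of 858 there, and 156 (10.2%) were the other way. The arrays labelled brown preadipocytes already held adipocyte transcripts, with Adipoq signals of 19089, 20791 and 16205 in brown preadipocytes, against 13.1, 40.3 and 42.5 in white preadipocytes, so the stage of those cells is given here by its label only. Rbp4, Zic1, Cdkn1c and Hoxc8 were among those higher in the brown line at both stages, with preadipocyte differences of 6.63, 7.28, 7.45 and 7.30. Cidea (−0.17), Ucp1 (0.35) and Lep (−0.19) differed little between preadipocytes. Agt had a preadipocyte difference of 6.90, opposite to its difference between adipocytes. Of the 12 largest towards white adipocytes, Apod (4.40), Camp (3.83), Aspn (2.15), Postn (1.54) and Mmp2 (1.03) were also opposite. Cdh11 (−6.83) and Dcn (−3.49) kept their direction, and the rest lay between −0.77 and 0.24. Collagens, other matrix genes and metalloproteases had preadipocyte medians of 0.66, 0.45 and 0.50, opposite in sign to those between adipocytes.

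**Figure D5:**
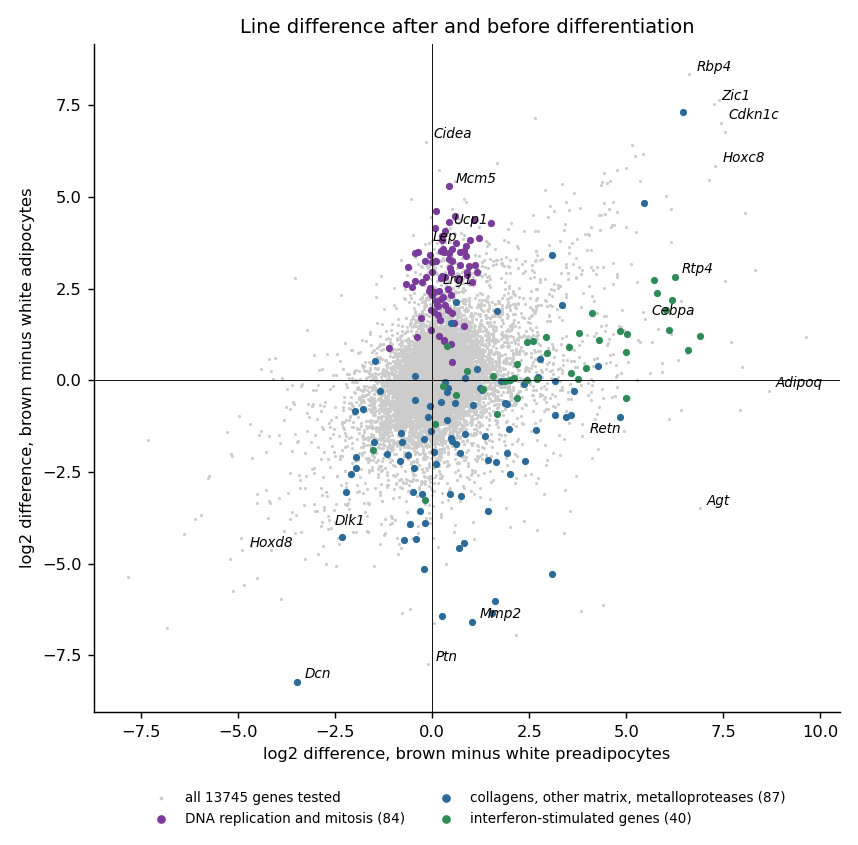
Log2 difference between the brown and the white line before differentiation (preadipocytes, horizontal) and after it (adipocytes, vertical) for every gene tested. Replication and mitosis genes lie near 0 on the horizontal axis and above 0 on the vertical axis, interferon-stimulated genes lie mostly to the right, and Agt lies to the right and below.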

How the data were processed

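Total RNA was hybridised to mouse 3′ expression arrays, 12 in all, of which 3 of brown and 3 of white adipocytes are compared. The values the authors deposited are linear signal intensities per probe set, from Affymetrix Expression Console according to the submitters' processing notes. The sources used here give neither its version and algorithm nor a genome build. On each array the mean of the deposited signals, trimmed by 2% at both ends, was 500.0, so arrays had been scaled, which hides changes in total RNA per cell. The number of arrays limits the precision.

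The platform annotation named 1 gene for 34958 of 45101 probe sets, several for 932 and none for 9211. Gene identifiers of 34741 were found in the GRCm38 gene table, with every symbol unchanged. A gene's brightest probe set by mean stood for it (18193 genes, 9010 with several probe sets, which can disagree) as log2(signal + 16). Genes above the 40th percentile on 3 or more of 12 arrays were tested. limma 3.58.1 (R 4.3.3) fitted 4 group means to all 12 arrays, with eBayes (8 residual and 1.81 prior degrees of freedom) and two-sided p-values. The groups share replicate numbers, but same-numbered arrays did not deviate together (r −0.030 to 0.005), so no block was used. The fit was also run on simulated data, but no outcome is given here, so that run is no evidence on these calls. Tables, exact tests and plots were made in Python 3.11.15 (scipy 1.17.1, numpy 2.4.6, matplotlib 3.10.9, pandas 2.3.3).

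The 60 gene lists (1572 entries, 1449 on the array) and the members were chosen with earlier results of these data known, so no list was tested as a set and none is independent evidence. The text names 11 genes of general interest, the 12 largest called differences without overlap in each direction, cell type markers, isoform partners and up to 4 called members per list and direction, by size. Mki67 and Rsad2, shown with their promoters, were chosen after their values were seen. Protein sequences were not analysed here. Promoters are RefSeq windows of GRCm38.p6.

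Tried as alternatives were pseudocounts of 1 and 64, equal medians, scaling to 9 hybridization control probe sets, quantile normalization, no filter, a 60th percentile filter, a filter on the 6 adipocyte arrays, the mean over a gene's probe sets, probe sets of specific design only, an intensity trend, robust moderation, a fit of the 6 arrays alone, a replicate block, an adjusted p under 0.01, and leaving out each array. List counts under other scalings, the alternatives for the difference between the line differences, and the E2F and TTTGAA motifs were added after seeing the data.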

Additional observations from a re-analysis of the deposited data

Results flagged for a closer look

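The limma fit also gave an interaction term, and its values are given here for 9 of the genes that were named for general interest. For all 9, the difference between the lines was not the same after differentiation as before it. Such calls were common in some lists, with 38 of 40 interferon-stimulated genes and 38 of 43 other matrix genes. They were fewer in others, with 3 of 19 ribosomal protein genes. The share over all genes tested is not given here. Each value below is the brown minus white difference of adipocytes minus that of preadipocytes. It was 2.43 for Lrg1 (adjusted p = 3.09e-07), 3.81 for Ucp1 (adjusted p = 6.59e-05), 3.90 for Lep (adjusted p = 3.63e-06) and 4.87 for Mcm5 (adjusted p = 1.08e-09). The line difference of these 4 genes was further towards brown after differentiation. For Mcm5 this came with a lower signal in the white line, not with a higher one in the brown line. It was −8.95 for Adipoq (adjusted p = 1.8e-08) and −5.40 for Retn (adjusted p = 3.65e-07). For the transcription factors it was −2.19 for Pparg (adjusted p = 4.45e-08) and −3.80 for Cebpa (adjusted p = 1.24e-07), and for the glucose transporter gene Slc2a4 it was −3.55 (adjusted p = 0.000394). These 5 genes were higher in brown than in white preadipocytes by 8.67 (Adipoq), 3.87 (Retn), 2.27 (Pparg), 5.47 (Cebpa) and 3.35 (Slc2a4). That gap was smaller or turned between the adipocytes. The arrays labelled brown preadipocytes already held adipocyte transcripts such as Adipoq, so their stage is given by the label only. The part of this in the values above was not tested.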

How the results depend on the processing

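The 5 counts of called genes stayed within 1.5 times of the values reported under every alternative. With each array left out in turn, 7624 to 7745 genes were called against 8175, of which 3784 to 3979 were higher in brown adipocytes and 3728 to 3843 higher in white adipocytes. At least 2-fold, the ranges were 1566 to 1659 and 1467 to 1573. Over the other settings the totals ran from 6826 to 8378. The replicate block gave 4110 genes higher in brown and 3995 higher in white adipocytes, and the pairing of numbers was not borne out by the arrays. Under that block the call of Abcg1 was lost. Scaling moved the median of all genes, by −0.12 with equal medians and by 0.12 with the hybridization controls, where 60.1% of calls were higher in brown adipocytes against 50.4% as reported and 42.2% with equal medians. Small medians of the mitochondrial, oxidation and ribosomal lists depend on this choice, while those of the replication, mitosis, matrix, metalloprotease and cholesterol lists kept their sign.

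Of 236 genes named, 208 kept their direction and their side of the threshold under each alternative run. Calls of Prdm16, Steap4, Fga, Pdk2, Tnnc2 and Abcg1 were lost with a pseudocount of 1, those of Aacs and Abcg1 with equal medians, and those of Atpif1, Plagl1, Pnpla2 and Vldlr with less specific probe sets left out. Pank1 and Lipe lost their calls with the hybridization controls, as did Acot2, and with the mean of probe sets, as did Col12a1. Cd36 lost its call under 11 of 20 alternatives. Cox8b and Slc2a4 were called in a fit of only the 6 arrays (adjusted p = 0.0478 and 0.0383). Pparg and Cox7a2 gained calls after quantile normalization, Pparg also with the hybridization controls and Cox7a2 also with less specific probe sets left out. Fabp4 gained a call with equal medians (−0.25), Cox8b with a pseudocount of 64 and Csf1r with the mean of probe sets (−0.39). Among called genes, 25 moved by over 1.5 times with another pseudocount and 13 with less specific probe sets left out, and the cause was not tested. Only genes that were not called changed sign. Scaling to the hybridization controls gave 0.011 for Adgre1, 0.054 for Cd34, 0.026 for Csf1r, 0.080 for Dio2, 0.024 for Fabp4. A pseudocount of 64 gave 0.0040 for Cd34. Quantile normalization gave −0.080 for Ckm, 0.00 for Fabp4. Equal medians gave −0.047 for Ckm, −0.077 for Cox7a2, −0.061 for Pparg. The mean of probe sets gave 0.12 for Fabp4. Less specific probe sets left out gave 0.34 for Fabp4. With each array left out, such genes ran from −0.20 to 0.058 for Adgre1, −0.17 to 0.26 for Cd34, −0.031 to 0.23 for Ckm, −0.23 to 0.034 for Csf1r, −0.19 to 0.22 for Dio2.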

Other observations

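The lists that the comparison above leaves out were short or near 0. Of 4 genes of ketone body metabolism tested, 1 was higher in brown adipocytes and 2 higher in white adipocytes, with Aacs, which activates acetoacetate for lipid synthesis, at 0.41 and Bdh2, a cytosolic dehydrogenase, at −0.78. The call of Aacs was lost with equal medians (0.27, adjusted p = 0.0532). In a longer skeletal muscle list, 25 genes were on the array, 14 were tested, 2 were higher in brown adipocytes and 4 higher in white adipocytes. The largest were Tnnc2, a troponin of fast muscle, at 1.35 and Actn3, an actinin of fast muscle, at −1.03, with means of 85.97 ± 37.7 in brown and 24.7 ± 15.7 in white adipocytes for Tnnc2 and 26.2 ± 21.6 in brown and 62.3 ± 9.32 in white adipocytes for Actn3. The call of Tnnc2 was lost with a pseudocount of 1 (adjusted p = 0.0657). That of Actn3 was lost in a fit of only the 6 adipocyte arrays (adjusted p = 0.0803) and without white adipocyte replicate 3 (adjusted p = 0.0658), and its difference was −0.58 without brown adipocyte replicate 3. Over the 60 lists, the median kept its sign under the 3 other scalings in 43 lists and turned under at least 1 of them in 17.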
